A study of Mus musculus with 3 samples.

Results

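The constitutive proteasome subunits are the genes of the standard protein-degrading particle of the cell, and their chromatin-associated RNA was measured in mouse bone marrow-derived macrophages (BMDM). The members were the genes with an annotated protein-coding transcript and a symbol of the Psma, Psmb, Psmc or Psmd series, leaving out the inducible core subunits Psmb8, Psmb9 and Psmb10 and the thymic Psmb11. This rule gave 35 of 55536 annotated genes, of which 22028 were protein-coding, and it used no measured value. The data comprised 1 group of C57BL/6J cells with 3 biological replicates. Lipid A is the membrane anchor of bacterial lipopolysaccharide and is sensed by the receptor TLR4. All 3 cultures received it at 100 ng/ml over 12 h, went without it for the next 12 h, and were exposed again at 100 ng/ml over 30 min, per the labels. RNA of the chromatin fraction was depleted of ribosomal RNA and sequenced, and the input RNA of replicates 1, 2 and 3 was 1 µg, 250 ng and 500 ng. The replicates carry 1 donor identifier, and sex and age are given as not collected. Cells without lipid A were not analysed here, so no level can be read as a response to it.

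The proteasome degrades proteins that carry ubiquitin chains. Its core particle is a stack of rings of alpha and beta subunits, in which the beta rings hold the proteolytic sites and the alpha rings gate the entry. The regulatory particle binds ubiquitin chains, removes them, and unfolds the substrate with a ring of ATPases (Psmc genes) set in a base, over which a lid of non-ATPase subunits (Psmd genes) lies. In activated macrophages, inducible beta subunits can take the place of the constitutive catalytic subunits and change the peptides offered to T cells. Transcription of subunit genes is known to be raised by NFE2L1, which binds antioxidant response elements with a small MAF partner. Chromatin-associated RNA is enriched for transcripts still being made or spliced, so its levels are not those of mature mRNA or of protein.

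Promoter sequences were searched for the letters of such elements, and a match does not show a working element. RefSeq (GRCm38.p6) gave 30 promoter windows for 28 of the 35 genes, and the 250 bases before each start were searched on both strands. Of these windows, 28 matched the 5′ end of an annotated transcript, and Psma6 and Psmc2 had 2 windows each. The antioxidant response element core, TGACNNNGC, was in the windows of 5 of 28 members (17.9%), against 12.2% of 16522 protein-coding genes. The difference between these shares was not tested. The 5 genes were Psmb5, Psmb6, Psmc6, Psmd9 and Psmd12, which include the catalytic subunits of the chymotrypsin-like and caspase-like sites. Their matches are printed 5′ to 3′ on the strand of the gene, with the match in capitals.
Psmb5, chr14:54618023-54618062, minus strand: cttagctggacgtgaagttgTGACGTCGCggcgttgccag
Psmb6, chr11:70525328-70525356, plus strand: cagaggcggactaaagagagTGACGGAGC
Psmd9, chr5:123228139-123228189, plus strand: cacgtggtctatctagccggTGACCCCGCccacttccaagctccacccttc
Psmc6, chr14:45329577-45329636, plus strand: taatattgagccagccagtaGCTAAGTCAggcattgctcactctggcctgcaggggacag
Psmd12, chr11:107479278-107479337, plus strand: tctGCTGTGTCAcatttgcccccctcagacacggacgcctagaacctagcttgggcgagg
The match began 47 bases before the start in Psmb5, 9 in Psmb6 and 31 in Psmd9. It lay farther away, at 227 and 247 bases, in Psmc6 and Psmd12, where the motif reads in the opposite direction. The only Psmd9 window lies far inside the annotated gene, which spans chr5:123169413-123250131. The genes with a match spanned nearly the whole range of levels, from 2.25 TPM (Psmb5) to 75.1 TPM (Psmb6).

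A site for ETS factors, CCGGAAG, was in 9 of 28 members (32.1%), against 10.5% of protein-coding genes. The members were Psma6, Psmc1, Psmc2, Psmc6, Psmd2, Psmd4, Psmd6, Psmd11 and Psmd12. Of these 9, 8 belong to the regulatory particle, which without assembly chaperones makes up 17 of all 35 members. Its share among the 28 members with a window was not counted. Psma6 counts only through a start 14603 bases inside the gene, and Psmc2 had a match in both of its windows. Of these, Psmc6 and Psmd2 are printed because they had the highest TPM.
Psmc6, chr14:45329704-45329763, plus strand: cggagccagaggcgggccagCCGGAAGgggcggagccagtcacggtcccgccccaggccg
Psmd2, chr16:20651606-20651651, plus strand: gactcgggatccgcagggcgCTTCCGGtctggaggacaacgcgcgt
The match began 100 bases before the start in Psmc6 and 26 in Psmd2. The CCAAT box (CCAAT) was in 11 of 28 members (39.3%), against 39.2% of protein-coding genes. The TATA box (TATAAA) was in 3 members, Psmb4, Psmd1 and Psmd6 (10.7%, against 13.3%). The core of the interferon-stimulated response element, GAAANNGAA, was in 3 members, Psmb3, Psmd4 and Psmd9 (10.7%, against 8.06%). The Psmd9 match was in its window inside the gene. No match of one motif overlapped a match of another in the members. A match is a string of letters in a window, and no binding was measured.

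All 35 subunit genes were detected above 1 TPM (the share of a gene's transcripts in a fixed total, scaled for transcript length and library size). Each passed a one-sided limma test against that floor on log2(TPM + 0.1), adjusted over 24180 genes with the Benjamini-Hochberg method. The background was 50.5% of all genes tested (12220 of 24180) and 61.1% of protein-coding genes tested (9239 of 15120). The median member had 22.9 TPM, with medians of 19.9, 25.2 and 20.5 TPM in replicates 1, 2 and 3 (SD 2.89). The median was 2.02 TPM over all genes tested and 4.17 TPM over the protein-coding ones. Of the 35 members, 31 lay above the protein-coding median and 5 above its 90th percentile of 47.7 TPM. Summed over the members the level was 890, 881 and 882 TPM, or 0.0758%, 0.0770% and 0.0719% of the counts of each library. The fold range across subunits of this particle was wide, 43.9-fold from Psma8 to Psmd8.

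**Figure D1:**
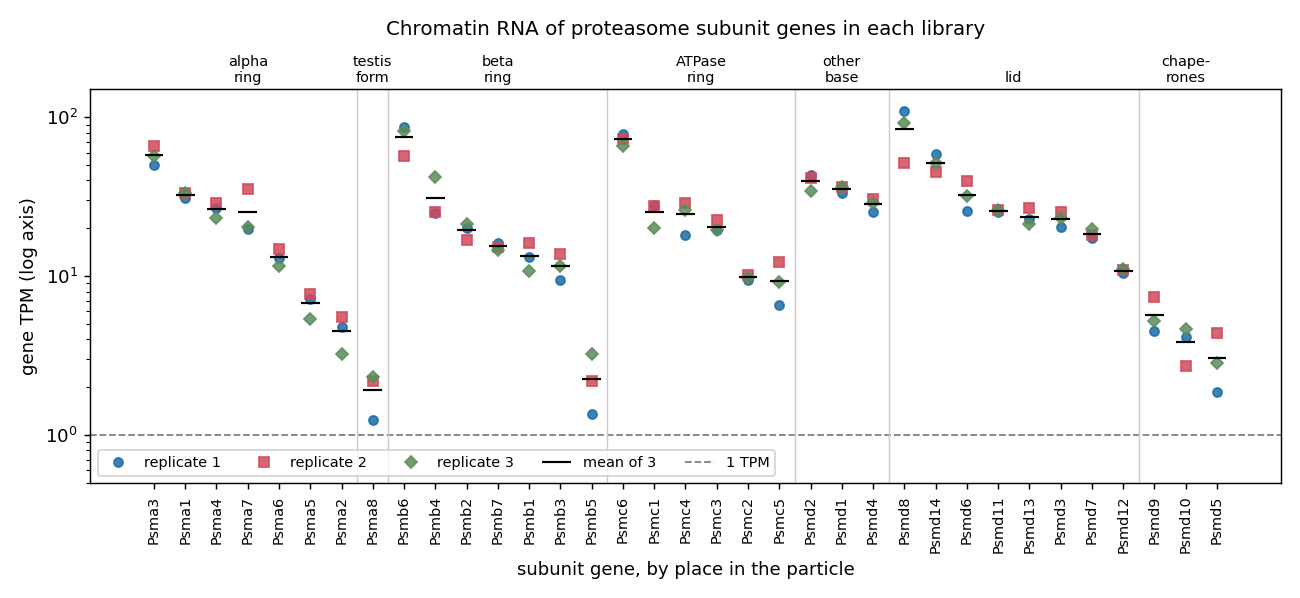
Gene TPM on a log axis for the 35 subunit genes, grouped by place in the particle, with a point for each of the 3 libraries and a bar at their mean; the dashed line is the 1 TPM floor of the test. Psmd8, Psmb6 and Psmc6 stand at the top, from 51.2 to 110 TPM, and all points of Psmb5 and Psma8 lie between 1.24 and 3.22 TPM.

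The 3 highest genes of the gene table came from different sub-complexes. In the second transcript table Psmd8 (127 TPM), Psmd14 (119 TPM) and Psmc6 (112 TPM) led, and on coding transcripts alone Psmd8 (29.2 TPM), Psmd1 (24.7 TPM) and Psmc1 (17.9 TPM). Psmd8, a lid subunit, had 110, 51.2 and 92.3 TPM in replicates 1, 2 and 3 (84.5 ± 30.2, SD, n = 3). Psmb6, the caspase-like catalytic subunit, had 86.6, 56.8 and 81.9 TPM (75.1 ± 16.0). Both were lowest in replicate 2, and their ranges overlapped. Psmc6, an ATPase of the base, had 78.9, 73.2 and 65.9 TPM (72.7 ± 6.49), and its lowest value was in replicate 3.

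The lowest genes were Psma8, Psmb5 and Psmd5. Psma8, the alternative alpha subunit known from the testis, had 1.24, 2.20 and 2.33 TPM from only 10, 21 and 21 expected counts. Its mean was 1.92 TPM, and it stood 0.83 above the floor on the log2(TPM + 0.1) scale (SE 0.28, limma adjusted p = 0.0315). Psmb5, the chymotrypsin-like catalytic subunit and the main target of proteasome inhibitor drugs, had 1.36, 2.18 and 3.22 TPM from 10, 22 and 30 expected counts (log2 difference 1.02, SE 0.30, limma adjusted p = 0.0203). Psmd5, a chaperone of base assembly, had 1.87, 4.41 and 2.85 TPM (log2 difference 1.43, SE 0.28, limma adjusted p = 0.00451). These 3 genes overlapped in their values, and the other 32 members had a limma adjusted p of at most 0.000521 (Psmd10). Psmb5 and Psma8 lost their calls when replicate 2 was left out (limma adjusted p = 0.0681 and 0.105) and when replicate 3 was left out (0.111 and 0.145). With all 55536 genes in the fit, Psmd5, Psmb5 and Psma8 were not called (limma adjusted p = 0.0924, 0.172 and 0.166).

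In the alpha ring, which gates the core, the median was 25.2 TPM over 7 genes, with a 12.8-fold range. Psma3 led with 57.8 TPM, followed by Psma1 (32.6 TPM), Psma4 (26.3 TPM), Psma7 (25.2 TPM) and Psma6 (13.1 TPM). Psma5 had 6.77 TPM and Psma2 4.52 TPM. The range rests on these low genes, and in the second transcript table it was 4.42-fold, from Psma6 (21.1 TPM) to Psma3 (93.1 TPM). Psma7, the constitutive counterpart of Psma8, was higher in replicate 2 (35.3 TPM) than in replicates 1 and 3 (19.9 and 20.5 TPM), and every value of it exceeded every value of Psma8.

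The beta ring had a median of 15.4 TPM over 7 genes and the widest range among the sub-complexes, 33.3-fold. Both of its extremes were catalytic subunits, Psmb6 at the top and Psmb5 at the bottom. Between them lay Psmb4 (30.9 TPM), Psmb2 (19.4 TPM), Psmb7 (15.4 TPM), Psmb1 (13.4 TPM) and Psmb3 (11.6 TPM). Of these only Psmb7, the trypsin-like subunit, is catalytic, and it had 16.3, 15.4 and 14.6 TPM. Psmb4 had 42.4 TPM in replicate 3, against 25.2 TPM in replicates 1 and 2, whereas its library-size-scaled counts differed from their mean by at most 0.05 on the log2 scale. The share of Psmb4 counts on its retained-intron transcripts was 77.4%, 47.5% and 60.9% in replicates 1, 2 and 3, so replicate 3 lay between the others. One of these transcripts, Psmb4-203, took 2.93%, 2.63% and 14.3% of the counts, with a mean of 10.7 TPM from 11.3 counts. Its part in the TPM of replicate 3 was not tested.

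The ATPase ring, which unfolds substrates, had a median of 22.5 TPM over 6 genes and a 7.79-fold range. Below Psmc6 came Psmc1 (25.2 TPM), Psmc4 (24.5 TPM), Psmc3 (20.5 TPM), Psmc2 (9.82 TPM) and Psmc5 (9.33 TPM). The other base subunits were more alike. The ubiquitin receptor and scaffold gene Psmd2 had 39.6 TPM, the scaffold gene Psmd1 35.4 TPM and the ubiquitin receptor gene Psmd4 28.4 TPM, a 1.40-fold range.

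The lid had a median of 24.7 TPM over 8 genes. Psmd14, the deubiquitinase that removes ubiquitin chains before degradation, had 51.8 TPM, and its inactive partner Psmd7 had 18.4 TPM. The scaffolding lid genes Psmd6, Psmd11, Psmd13, Psmd3 and Psmd12 had 32.3, 25.8, 23.7, 22.9 and 10.9 TPM. The ranges of Psmd14 (44.9 to 59.1 TPM) and Psmd7 (17.3 to 19.8 TPM) did not overlap.

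The 3 chaperones of base assembly that the rule takes in, which are not part of the finished particle, were low. Psmd9 had 5.74 TPM, Psmd10, also called gankyrin, 3.85 TPM and Psmd5 3.04 TPM. Every value of these 3 genes, at most 7.43 TPM, lay below every value of the 8 lid genes, of which the lowest was 10.5 TPM. Such levels were not particular to the chaperones. In the core, Psmb5 (1.36 to 3.22 TPM), Psma2 (3.23 to 5.56 TPM) and Psma5 (5.41 to 7.75 TPM) overlapped them, and Psmc5 of the base had 6.57 TPM in replicate 1. Without Psma8 and the chaperones, the core had a median of 17.4 TPM (n = 14 genes) and the regulatory particle 25.2 TPM (n = 17 genes). The order of these medians turned in the second transcript table, with 29.1 TPM for the core and 28.6 TPM for the regulatory particle, and on coding transcripts alone they were 5.82 and 11.3 TPM. Ranges on coding transcripts were narrower in the alpha ring (3.27-fold), the beta ring (7.41-fold), the ATPase ring (6.24-fold) and the lid (4.73-fold). They were wider in the other base subunits (1.83-fold), the chaperones (3.48-fold) and over all 35 members (79.6-fold).

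The order of the genes was alike in the libraries but loose between neighbours. Spearman's rho between libraries was 0.948 to 0.960 across the 35 genes, which are not independent replicates. Of the 34 pairs of neighbours in the order of means, 3 had ranges that did not overlap. These were Psmd14 over Psmd2, Psmd7 over Psmb7, and Psmd12 over Psmc2.

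Each catalytic subunit has an inducible counterpart, and the pairs were compared within each library. At the site with caspase-like activity in the constitutive core, Psmb9 had 24.8, 31.4 and 16.8 TPM, below Psmb6 in 3 of 3 libraries (mean log2 ratio of Psmb9 to Psmb6 -1.65, SD 0.73). At the trypsin-like site, Psmb10 had 36.5, 43.7 and 33.2 TPM, above Psmb7 in 3 of 3 (mean log2 ratio 1.29, SD 0.19). At the chymotrypsin-like site, Psmb8 had 22.2, 26.7 and 16.1 TPM, above Psmb5 in 3 of 3 (mean log2 ratio 3.32, SD 0.89). The constitutive genes differed more among themselves (2.25 to 75.1 TPM) than the inducible ones (21.7 to 37.8 TPM). A two-sided exact sign-flip test over 3 libraries cannot give a p below 0.25, so these ratios are given without a test. In the second transcript table that the authors deposited the directions were the same, and the Psmb8 to Psmb5 log2 ratio was 2.40 (SD 0.51). The transcript classes of these genes differed, since 92.0% of Psmb8 counts, 89.0% of Psmb9 counts and 39.1% of Psmb10 counts lay on transcripts annotated as retaining an intron, while Psmb5 has no such transcript. On coding transcripts alone, Psmb8 had 1.58, 2.01 and 1.5 TPM against 1.36, 2.18 and 3.22 TPM for Psmb5, and it was higher in 1 of 3 libraries. The mean difference there turned to -0.32 on the log2(TPM + 0.1) scale (SD 0.65). The directions of the other pairs held on coding transcripts, at -1.59 (SD 0.50) for Psmb9 minus Psmb6 and 2.15 (SD 0.44) for Psmb10 minus Psmb7.

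**Figure D2:**
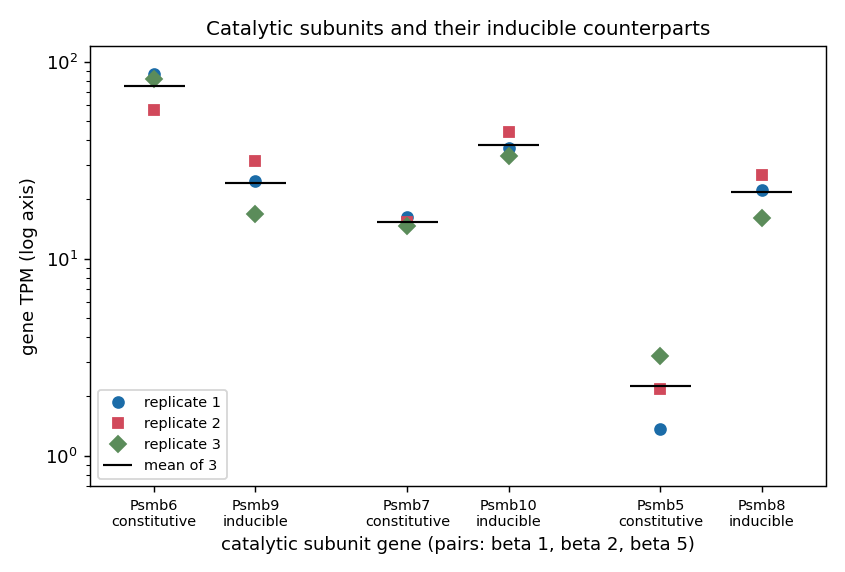
Gene TPM on a log axis for the constitutive catalytic subunit genes and their inducible counterparts, paired by site (beta 1, beta 2, beta 5), with a point for each of the 3 libraries and a bar at their mean. Over all transcript classes, Psmb6 lies above Psmb9, and Psmb7 and Psmb5 lie below Psmb10 and Psmb8, in every library; on coding transcripts alone Psmb8 was above Psmb5 in 1 of 3.

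A large share of the subunit RNA was assigned to transcripts annotated as holding a retained intron, a noncoding class whose models include intron sequence. The share over all members was 40.0%, 38.5% and 35.9% of expected counts in replicates 1, 2 and 3 (38.1% ± 2.05, SD, n = 3). Over all protein-coding genes it was 25.6% ± 1.86, and it was lower than in the members within each library. Coding transcripts took 54.3% ± 2.60 of the members' counts and 67.1% ± 2.16 over all protein-coding genes. A retained-intron transcript was annotated for 24 of 35 members (68.6%), against 60.5% of 11286 protein-coding genes averaging 10 or more expected counts. Among genes with such a transcript, the median share was 47.4% in the members and 27.8% in protein-coding genes. In 11 of the 24 members (45.8%) the share was over 50%, against 27.5% of the 6832 protein-coding genes with such a transcript.

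**Figure D3:**
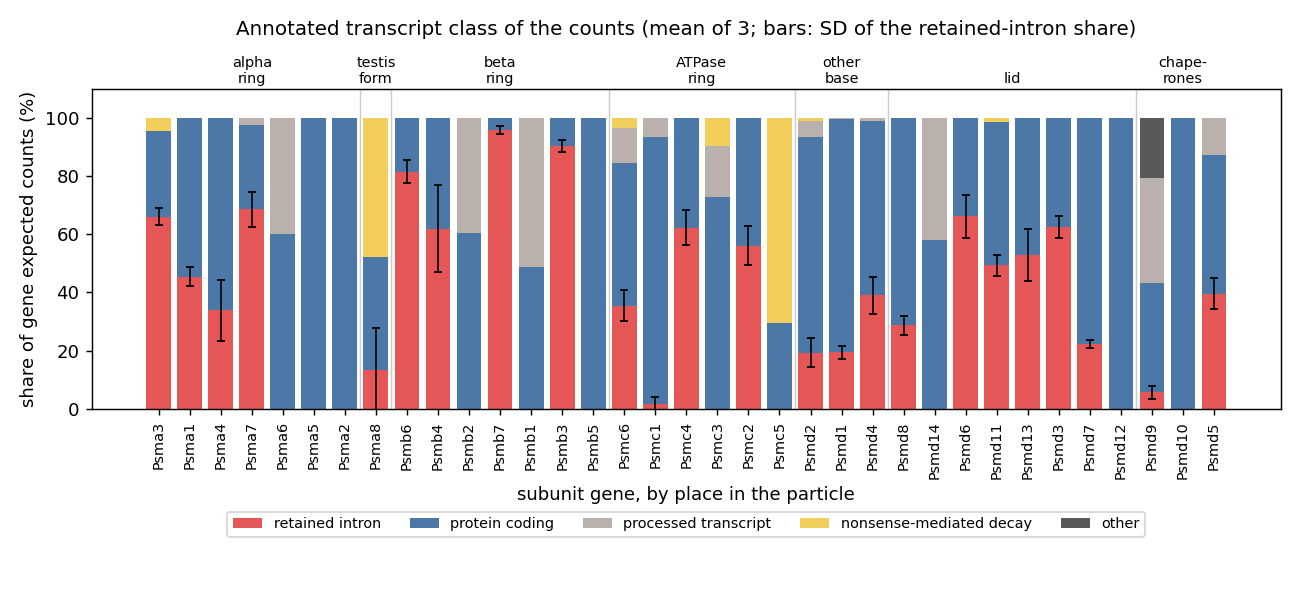
Share of each subunit gene's expected counts by annotated transcript class (mean of 3 libraries; black bars, SD of the retained-intron share), grouped by place in the particle. Psmb7, Psmb3 and Psmb6 have the highest retained-intron shares, and 11 genes have no transcript of that class.

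The highest shares were in beta subunits. Psmb7 had 97.1%, 94.5% and 96.0% of its counts on a single retained-intron transcript, Psmb7-202 (95.9% ± 1.29). Its coding transcript reached a mean of 1.66 TPM, against 15.4 TPM for the gene. Psmb3, a structural beta subunit, had 89.5%, 93.0% and 89.2% (90.5% ± 2.10). Psmb6 had 86.2%, 79.5% and 79.2% (81.7% ± 3.97), spread over 3 such transcripts, and its coding transcript had 12.3 TPM. The SDs of these shares were small beside the differences from the median member. In the second transcript table Psmb7, Psmb3 and Psmb6 also led, with means of 84.3%, 81.6% and 78.4%.

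The lowest shares among genes with such a transcript were in Psmc1, Psmd9 and Psma8. Psmc1 had 4.16%, 0.904% and 0% (1.69% ± 2.19), and Psmd9 had 5.48%, 7.95% and 3.53% (5.65% ± 2.22). Psma8, with 10 to 21 counts a library, had 0%, 28.6% and 11.1% (13.2% ± 14.4), which is as wide as its mean. In the second transcript table the lowest means were 2.16% in Psmd9, 5.88% in Psmc1 and 8.64% in Psmd5. There Psma8 had 24.1%, and the mean of Psmd5 in the first transcript table was 39.5%. The 11 members listed at 0 have no annotated transcript of the class, so their values are set by the annotation. They are Psma2, Psma5, Psma6, Psmb1, Psmb2, Psmb5, Psmc3, Psmc5, Psmd10, Psmd12 and Psmd14. Some of them put counts on other noncoding classes. Psmc5 had 70.5% on a transcript annotated for nonsense-mediated decay, and Psmb1 had 51.4%, Psmd14 42.1%, Psma6 39.9% and Psmb2 39.5% on transcripts typed only as processed.

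The annotation of the introns moved with the gene level. The part of each gene outside the exons of its coding transcripts that other annotated exons cover was taken as a measure, with a median of 6.46% in the members and 2.79% in protein-coding genes averaging 10 or more expected counts. Across the 35 members, Spearman's rho between this coverage and mean TPM was 0.53. The points share libraries and annotation, and the part of the annotation in the levels was not tested. Members with a retained-intron transcript had a median of 25.5 TPM (n = 24) and those without 10.9 TPM (n = 11). The second transcript table gave 30.9 and 21.03 TPM. On coding transcripts alone the medians were 9.79 and 6.25 TPM. Psmb5, Psma2 and Psmd10, among the lowest genes, have a coverage of 0%, and so does Psmd12 with 10.9 TPM. Psmd14 goes the other way, with 51.8 TPM at a coverage of 1.47%. Among the 24 genes with such a transcript, rho between the retained-intron share itself and TPM was 0.03. In 22 of 35 members, coding transcripts gave less than 50% of the gene's TPM (62.9%, against 39.7% of the same protein-coding genes).

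**Figure D4:**
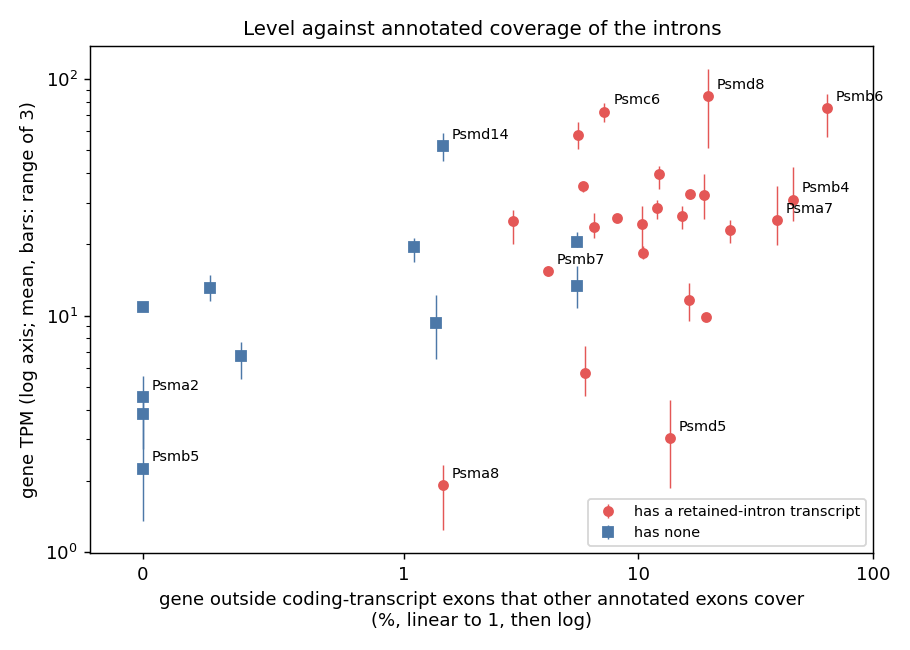
Mean gene TPM (log axis; vertical bars, range of the 3 libraries) against the percentage of the gene outside coding-transcript exons that other annotated exons cover (linear to 1, then log), for the 35 subunit genes. Blue squares, the 11 genes without a retained-intron transcript, lie at low coverage, with Psmd14 highest among them at 51.8 TPM, and Psmb6 has the highest coverage, 63.4%.

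The second transcript table, from another quantification of the same reads, ranked the genes alike (Spearman's rho 0.89, n = 35) but gave other levels for some. Its median ratio to the gene table was 1.30, against 1.29 for protein-coding genes averaging 10 or more expected counts, and for 13 members it exceeded 1.5 (37.1%, against 36.8%). Psma2 had the largest ratio, with 30.2 TPM in place of 4.52 TPM (6.67), followed by Psma5, with 22.8 in place of 6.77 TPM (3.37), and Psmd14, with 119 in place of 51.8 TPM (2.29). Psmb5 stayed low, at 3.25 ± 0.394 TPM.

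The members lie on 16 chromosomes. By the GENCODE M21 annotation on mm10, the median member spans 13426 bases, against 24234 for protein-coding genes averaging 10 or more expected counts. Psmb6 (chr11:70525367-70527858) is the shortest, at 2492 bases, and Psmd14 (chr2:61711694-61800376) the longest, at 88683. Across members, Spearman's rho between span and TPM was -0.24. For 6 of 35 members (17.1%), another protein-coding gene starts within 1000 bases upstream on the opposite strand, against 10.7% of those protein-coding genes. The pairs are Psma7 with Ss18l1, Psmb1 with Tbp, Psmc2 with Dnajc2, Psmc5 with Ftsj3, Psma2 with Mrpl32 and Psmd10 with Atg4a. Exons of 10 gene models overlap member exons, and whether counting used strand is not given in the sources used here. The values of Psmd9 (1849 bases shared with Gm26745), Psmb7 (405 with Nek6), Psmd13 (342 with Sirt3), Psmd1 (301 with Gm21972 and 252 with Htr2b) and Psmc3 (215 with Slc39a13) are uncertain. Smaller overlaps touch Psma4, Psmb5 (109 with Mir686), Psma5 and Psmd3. Gm21972 and Mir686 lie on the strand of the member, so counting by strand would not separate them. The other models lie on the opposite strand. The listed pseudogenes of beta subunits, Psmb5-ps, Psmb6-ps, Psmb6-ps2 and Psmb7-ps2, had 0 TPM in every library of the gene table.

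Spread between libraries was modest for most subunits. The median biological coefficient of variation, edgeR's estimate of replicate spread beyond counting error, was 0.182 (0.159 to 0.265) in the members, 0.210 over all 14140 genes in the fit and 0.201 over protein-coding genes. None of the backgrounds for spread given here was matched to the members in level. The coefficient of variation of TPM was under 10% in 10 members (28.6%, against 22.3% of protein-coding genes averaging 10 or more expected counts), with Psmd11 (1.69%) and Psmd12 (2.90%) the steadiest. It exceeded 30% in 7 members (20.0%, against 25.9%), namely Psmd5, Psmb5, Psmd8, Psma7, Psmb4, Psma8 and Psmc5. Of the 35 members, 21 had their highest TPM in replicate 2 (60%, against 45.3%) and 20 their lowest in replicate 1 (57.1%, against 42.4%). Median log2 differences from the mean, in library-size-scaled counts, were -0.05, 0.11 and 0.02 in replicates 1, 2 and 3, against -0.04, 0.03 and 0.02 for protein-coding genes. By TPM, 5 members were lowest in replicate 2 (14.3%, against 28.0% of protein-coding genes averaging 10 or more expected counts). In scaled counts they were also lowest there, namely Psmd8 (0.53, -0.62 and 0.10), Psmb6 (0.34, -0.47 and 0.13), Psmd10 (0.19, -0.49 and 0.31), Psmb2 (0.21, -0.29 and 0.08) and Psmd14 (0.16, -0.25 and 0.08). On that scale replicate 2 was lowest by a smaller margin, at -0.03 to -0.09, for Psmc6, Psmb7, Psmd11, Psmd7 and Psmd12. Input RNA differed between the replicates, and its part in these differences was not tested.

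**Figure D5:**
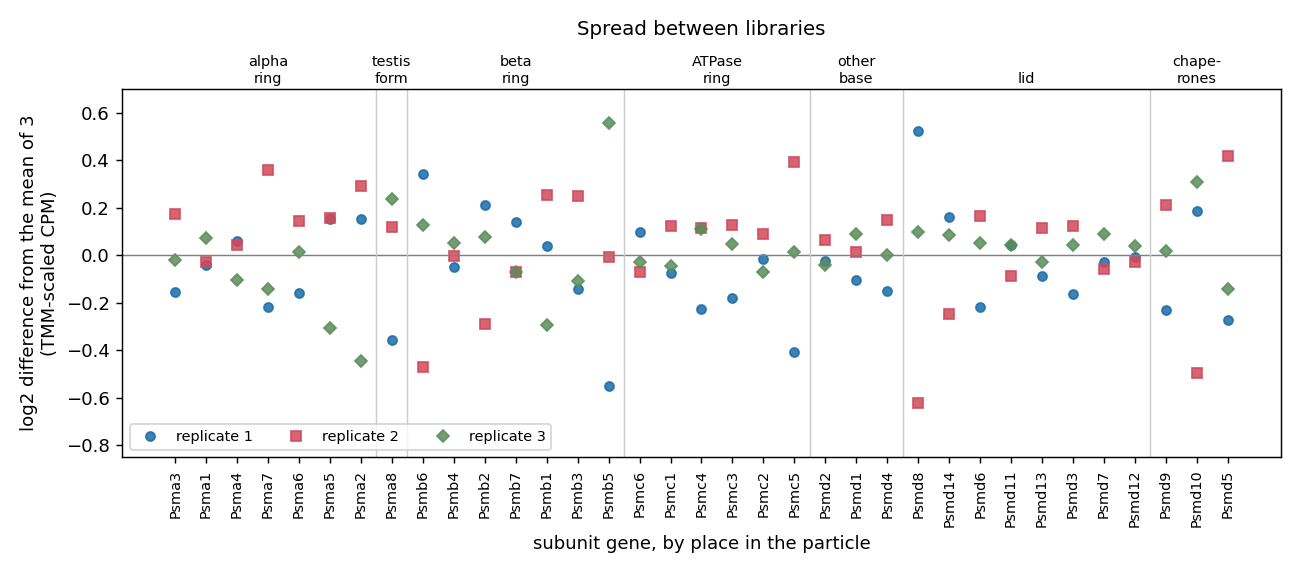
Log2 difference of each library from the mean of the 3, in CPM, counts scaled to a fixed library total, after TMM scaling, for the 35 subunit genes by place in the particle. Replicate 2 is lowest for Psmd8 (-0.62), Psmd10 (-0.49) and Psmb6 (-0.47), and highest for Psmd5 (0.42) and Psmc5 (0.39).

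Other genes of the pathway were called above 1 TPM in most lists, read against the same backgrounds. The activators and the inhibitor were called in 5 of 5, from Psmf1, the inhibitor (4.05 TPM), to Psme2, a subunit of the interferon-inducible activator (196 TPM). Dedicated assembly chaperones of the core were called in 2 of 5, with Pomp, the maturation factor, at 16.8 TPM and Psmg4 at 0.78 TPM. Psmg4 and also Psmg1 (1.44 TPM) and Psmg3 (1.29 TPM) did not pass, and Paaf1, a chaperone of the base in the same list, was not matched. Other subunits and associated factors were called in 10 of 11, from Ubqln2, a shuttle factor that did not pass (0.473 TPM), to Ecpas, a scaffold that binds the particle (113 TPM). The NFE2L1 axis was called in 8 of 8, from Mafk (10.9 TPM) to Nfe2l2 (325 TPM). Inducible and thymic core subunits were called in 3 of 4, and Psmb11 had 0.0167 TPM in the gene table but 3.42 TPM in the second transcript table.

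The 3 libraries held 12532722, 18395358 and 18237730 expected counts, and 3 counts, the limit that a count of 0 allows, correspond to 0.164 to 0.242 CPM. Pairs of libraries differed far beyond counting noise (chi-square per degree of freedom 44.5 to 84.5). Macrophage markers were called above 1 TPM in 10 of 10, with summed levels of 1160 to 1396 TPM. Neutrophil markers were called in 0 of 4, with 3 at 0 in every library (Ly6g, Mpo and Elane), stromal or endothelial markers in 0 of 5 and T and B cell markers in 1 of 6, Cd4 (7.33 TPM). Summed levels of these 3 lists were at most 0.19, 3.51 and 8.14 TPM in the gene table. In the second transcript table they were at most 3.68, 13.2 and 12.1 TPM, with 1.74 TPM for Mpo and 9.93 TPM for the endothelial marker Pecam1, and macrophage markers summed to 1547 to 1737 TPM. In bulk RNA, fewer cells of a type and less RNA per cell cannot be told apart.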

How the data were processed

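Each of 3 libraries had a gene table and 2 transcript tables on mm10 with GENCODE M21, per the text files beside the samples. The authors deposited expected counts and TPM, 2 units of the same reads. Neither aligner nor strand setting is stated there: not given in the sources used here. Rows naming no gene, mainly spike-in phiX, held 0.401% to 1.04% of counts and were left out of tests. With 1 group analysed here, genes were tested with limma (3.58.1, R 4.3.3, intercept only, trend) on log2(TPM + 0.1), one-sided against 1 TPM, over genes with a nonzero TPM, with a threshold of 0.05 after Benjamini-Hochberg adjustment. Spread came from edgeR (4.0.16; TMM, filterByExpr) on expected counts rounded to whole numbers, with DESeq2 (1.42.0) as an alternative. The limma and edgeR steps were tested on simulated data. Classes came from annotated transcript types. The labels give biological replicates of 1 donor identifier but not separate animals, so p-values measure only the spread between these libraries.

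The pairs of catalytic subunits were compared on other transcript sets after the data were seen. Members and lists were chosen with earlier results of these data known. Every member was named with its mean TPM. Values per library were given for the 3 highest and 3 lowest members by TPM, the catalytic subunits, the 3 highest and 3 lowest retained-intron shares, and the inducible counterparts. Psmb4, Psma7 and members singled out for their spread were chosen after their values were seen. Of the other pathway lists, 1 is not reported here. From the rest the highest and lowest genes were named, and genes not called were named after their values were seen. Tables and plots were made with pandas 2.3.3, numpy 2.4.6 and matplotlib 3.10.9 under python 3.11.15, and correlations with scipy 1.17.1.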

Additional observations from a re-analysis of the deposited data

How the results depend on the processing

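No paired analysis was possible because the samples form 1 group. The count of 35 members above 1 TPM (limma) held with pseudocounts of 1 and 0.01 (49.6% and 51.1% of all genes called). It also held in the second transcript table (57.1%) and among genes averaging 10 or more expected counts (81.7%). The test above called 50.5% of all genes and 61.1% of protein-coding genes. Among genes averaging 10 or more expected counts, 83.8% of protein-coding genes were called, so the count of 35 says less there. It was 32 with all genes in the fit (19.5% of all genes called), 33 on coding transcripts only (56.4%), 28 against a floor of 5 TPM (30.5%), and 33 to 35 with each replicate left out (50.2% to 51.8%). Against 5 TPM the log2 difference turned to -0.18 for Psma2, -0.40 for Psmd10, -0.78 for Psmd5, -1.20 for Psmb5 and -1.38 for Psma8. On coding transcripts only it turned to -0.041 for Psmd5 and -1.41 for Psma8.

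The median of 22.9 TPM was 28.0 in the second transcript table, 7.76 on coding transcripts only, and 20.7 to 23.8 with each replicate left out. The retained-intron share of 38.1% was 35.6% in the second transcript table, 28.7% as a median over members, 49.4% as a share of TPM, 45.5% over members with such a transcript, and 37.2% to 39.2% with each replicate left out. The median biological coefficient of variation of 0.182 ranged from 0.164 without replicate 2 to 0.228 without replicate 3. In alternatives chosen after seeing the data, the log2 difference of Psmb8 minus Psmb5 was 2.40 in the second transcript table and turned to -0.32 on coding transcripts only. The causes of these shifts were not tested beyond the change of table, class or libraries itself. Depth limits Psmb5 and Psma8, with 10 to 30 expected counts a library.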

Other observations

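Some other genes of the pathway differed more between libraries than the median subunit did. Nfe2l2, the antioxidant response factor related to NFE2L1, had 388, 178 and 409 TPM in replicates 1, 2 and 3, and Maff, a small MAF partner, had 21.4, 6.93 and 30.6 TPM. Both were lowest in replicate 2, as were Psmd8 and Psmb6. By TPM most subunits were not, since 5 of the 35 members (14.3%) were lowest there and 21 (60%) were highest. In library-size-scaled counts Psmc6, Psmb7, Psmd11, Psmd7 and Psmd12 were also lowest there, by small margins, so the low share holds for TPM only. Among protein-coding genes averaging 10 or more expected counts, 28.0% were lowest in replicate 2 and 45.3% highest, by TPM. Nfe2l1 itself had 81.6, 59.0 and 75.6 TPM, and Vcp, the segregase that extracts proteins for degradation, 104, 95.0 and 107 TPM. Mafg was not lowest in replicate 2, with 48.3, 64.1 and 64.1 TPM. These genes were picked once their values had been seen, and the differences between libraries of the 1 group were not tested.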
